A study of Mus musculus with 15 samples.

Results

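The table of expression values held 36 Hox genes among 18929 genes, and these 36 were followed across healed wounds and normal skin of the mouse. They are every symbol made of Hoxa, Hoxb, Hoxc or Hoxd and a number. This naming rule uses no expression value, but the family was taken up with earlier results of these data known. In the GRCm38.p6 annotation, 11 of them lie in the Hoxa cluster (chr6:52155367-52260880, minus strand), 9 in the Hoxb cluster (chr11:96271330-96368254, plus strand), 9 in the Hoxc cluster (chr15:102921131-103036856, plus strand) and 7 in the Hoxd cluster (chr2:74679558-74765142, plus strand). By paralogue group, which numbers the genes by their place in a cluster, 8 belonged to groups 1 to 3, 15 to groups 4 to 8 and 13 to groups 9 to 13. Hoxc13, which is also a gene of the hair matrix, was kept apart in the summaries of groups 9 to 13.

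Hox genes encode homeodomain transcription factors that give cells their position along the body. Within a cluster, genes with low numbers are used towards the head, and genes with high numbers towards the tail and the ends of the limbs. Cells of adult skin and muscle keep part of this pattern, so that their Hox levels differ with the body site they came from. Hoxc13 has a further task in the hair follicle, where it switches on keratins of the hair shaft.

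All 15 samples were skin from wild-type (WT) mice, which the methods describe as male balb/c mice of 4 to 6 weeks, with 3 samples in each of 5 groups. In 4 of these groups, rounded full-thickness wounds of 10 mm or 15 mm along the dorsal midline had received acellular Matrigel beads (acellular) or beads densely loaded with mesenchymal stem cells, termed high cell density beads (HDB). The stem cells came from human umbilical cord, and the table lists mouse genes, so human reads were not told apart here. The normal group was skin without a wound. The methods give 4 weeks of implantation for the sequenced skin and an earlier last day for the follow-up of wounds, and they do not say from which body site the normal skin was taken. Nothing in the labels says that replicates came from separate animals, so p-values measure the spread between these samples, which may be technical.

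Total counts ranged from 15840551 to 18404186 per sample. Levels are normalised read counts in CPM, the reads of a gene relative to the library total after TMM scaling, and the scaling factors lay between 0.899 and 0.915 in normal skin and between 0.959 and 1.13 in wounds. Samples of the acellular 15 mm group were the least alike (pairwise correlations across genes of 0.853 to 0.921), against 0.923 to 0.989 in the other groups. The label of skin fitted the defining markers in every sample, with Krt5, the keratin of basal epidermis, between 2225 and 7961 CPM and Col1a1, the main dermal collagen, between 730 and 5913 CPM. Skeletal muscle RNA was present too, with Acta1 at 12977 to 16282 CPM in normal skin and 136 to 8734 CPM in wounds.

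Promoter sequences were available for 20 of the 36 members, as 22 windows from 250 bases before to 50 bases after a start site (RefSeq, GRCm38.p6). Windows of Hoxa9, Hoxd9 and Hoxd10 are shown because these neighbours in paralogue number were lower in healed wounds, and that of Hoxb4 because it was higher. Each is printed 5′ to 3′ on the strand of its gene, and capitals mark TAAT on either strand, the core that homeodomain proteins bind. The windows are chr6:52227321-52227620 on the minus strand for Hoxa9, and on the plus strand chr2:74697513-74697812 for Hoxd9, chr2:74691641-74691940 for Hoxd10 and chr11:96318017-96318316 for Hoxb4.
Hoxa9: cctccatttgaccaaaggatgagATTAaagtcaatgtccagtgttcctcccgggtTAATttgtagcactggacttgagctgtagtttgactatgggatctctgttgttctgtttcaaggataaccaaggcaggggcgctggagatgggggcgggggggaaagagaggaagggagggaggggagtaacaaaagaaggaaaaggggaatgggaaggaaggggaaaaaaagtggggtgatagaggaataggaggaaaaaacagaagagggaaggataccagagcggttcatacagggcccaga
Hoxd9: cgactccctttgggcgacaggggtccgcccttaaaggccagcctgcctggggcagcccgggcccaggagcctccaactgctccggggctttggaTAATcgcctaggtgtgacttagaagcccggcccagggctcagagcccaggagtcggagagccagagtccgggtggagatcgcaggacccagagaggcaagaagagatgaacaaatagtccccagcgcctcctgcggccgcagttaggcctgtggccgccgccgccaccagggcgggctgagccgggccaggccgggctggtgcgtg
Hoxd10: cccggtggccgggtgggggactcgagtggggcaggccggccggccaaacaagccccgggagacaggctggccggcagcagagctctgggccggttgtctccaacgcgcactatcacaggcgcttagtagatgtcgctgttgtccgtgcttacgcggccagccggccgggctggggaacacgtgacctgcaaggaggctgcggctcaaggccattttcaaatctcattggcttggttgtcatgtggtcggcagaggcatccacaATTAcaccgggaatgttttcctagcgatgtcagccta
Hoxb4: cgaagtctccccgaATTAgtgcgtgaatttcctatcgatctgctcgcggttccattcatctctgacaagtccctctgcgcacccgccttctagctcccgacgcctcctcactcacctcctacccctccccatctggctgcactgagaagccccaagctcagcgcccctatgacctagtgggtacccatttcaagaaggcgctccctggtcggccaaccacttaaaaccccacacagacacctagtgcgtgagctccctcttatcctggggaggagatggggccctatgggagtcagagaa
TAAT was found in 18 of the 22 member windows (81.8%) and in 58% of the 32851 windows of the same length in the table. TGATNNAT, a composite site for a HOX protein with a cofactor that was searched on both strands and can overlap TAAT, was found in 4 of the 22 windows (18.2%) and in 8.85% of all windows. Among the 7 windows of members that were lower in wounds, 6 held TAAT and 0 held TGATNNAT. These matches describe the letters in the windows and say nothing about binding.

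Of the 36 members, 29 passed the filter on low counts and were tested, among 15369 genes in all. The other 7 were close to silent in every sample. Hoxa11 had 3 reads over the 12 wound samples and 2 over the 3 normal samples, Hoxa13 had 3 and 1, and Hoxc11 had 1 and 2. Hoxb1 had 7 reads in wounds, Hoxd11 had 7 and Hoxc12 had 27, each with 0 in normal skin, where a count of 0 allows up to 3 reads per library (0.163 to 0.189 CPM over the libraries). Hoxd1 had 25 reads in wounds and 1 in normal skin. Among members beyond group 10, only Hoxc13 passed the filter.

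Expressed per kilobase of transcript, so that genes can be compared, Hoxd8 had the highest mean level over the 15 samples at 24.6 CPM per kb. It was followed by Hoxc6 at 22.1, Hoxc13 at 17.0, Hoxa7 at 16.2 and Hoxc8 at 14.7 CPM per kb. These are mid-cluster genes of the trunk apart from Hoxc13. In normal skin Hoxd8 led with 42.3 CPM per kb, Hoxa7 followed with 26.7, and Hoxa9 ranked 6 with 14.6. In wounds Hoxc6 led with 22.3 CPM per kb, Hoxc13 followed with 20.9, and Hoxa9 ranked 20 with 2.52. Without acellular 15 mm replicate 1, which held the most Hoxc13, that gene was at 13.8 CPM per kb in wounds and ranked 6. Hoxc13 ranked 28 in normal skin with 1.47 CPM per kb. With the longest transcript in place of the median transcript, Hoxc6 ranked 1 and Hoxd8 ranked 3. Hoxa7 then fell from rank 4 to rank 13, at 5.85 CPM per kb.

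**Figure D1:**
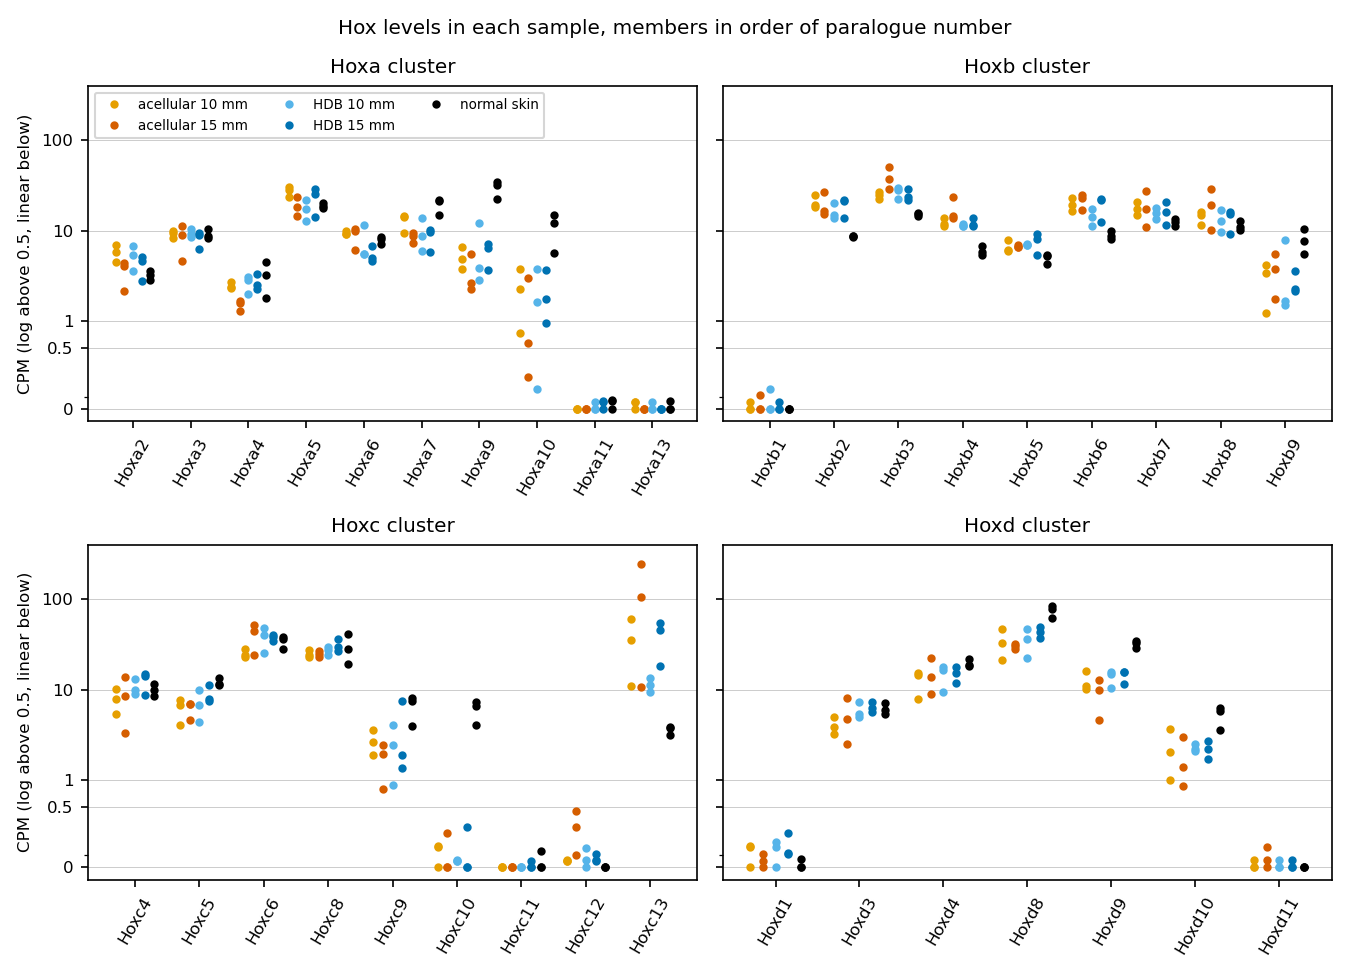
Level of 35 Hox members in each of the 15 samples, in CPM on an axis that is logarithmic above 0.5 and linear below, with 1 panel per cluster, members in order of paralogue number and 1 point per sample coloured by group. In normal skin (black) Hoxa9, Hoxa10, Hoxc10 and Hoxd9 lie above all wound samples, and Hoxb2 to Hoxb6 and Hoxc13 lie below them.

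Healed wounds were then compared with normal skin, taking the mean of the 4 wound groups. Of the 29 members tested, 15 were called at an adjusted p under 0.05 (51.7%), against 30.9% of all genes tested. Of these, 6 were higher in wounds (20.7%, against 14.2% of all genes) and 9 were lower (31.0%, against 16.7%). The median log2 fold change was -0.06 over the members and 0.04 over all genes. In 12 members the wound samples and the normal samples did not overlap (41.4%, against 21.0% of all genes). Members of groups 9 to 13 other than Hoxc13 were lower in wounds in 7 of 7 cases, 6 of them called. Hoxc10 is 1 of these, of the 15 called and of the 12 without overlap. It passed the filter only through its level in normal skin. Groups 4 to 8 were split, with 7 of 15 higher and 8 lower, and among them the 5 Hoxb members were higher and both Hoxd members lower. Of the 6 called higher, 5 were Hoxb2 to Hoxb6 and the other was Hoxc13. Bulk RNA cannot tell fewer cells of a type from less RNA per cell, and this holds for every value below. The body site of the normal skin is not given, so a difference between healed and unwounded skin and one between body sites cannot be told apart here.

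Hoxc10, which marks the hind trunk and the hindlimb, was the member nearest to present in normal skin and absent from wounds. It had 94, 61 and 109 reads in the 3 normal samples. In wounds it had 3, 0 and 3 reads in acellular 10 mm skin, 5, 0 and 0 in acellular 15 mm skin, 1, 1 and 1 in HDB 10 mm skin and 0, 0 and 6 in HDB 15 mm skin. Every normal sample thus held many more reads than any wound sample. The levels were 6.60, 4.08 and 7.31 CPM in normal skin and 0.0947 ± 0.119 CPM in wounds (SD, n = 12), at chr15:102966796-102971898. The fitted log2 fold change was -5.92 (standard error 0.65, edgeR quasi-likelihood adjusted p = 0.000559), a value that depends on the prior count at so few reads. Since Hoxc10 entered the test only because normal skin was high, its call adds nothing to the read counts themselves.

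Hoxa9, a posterior gene that also acts in blood and muscle progenitors (Entrez 15405, chr6:52223097-52227370), was measured at 32.3, 22.7 and 34.5 CPM in normal skin. It reached 3.77, 4.88 and 6.55 CPM in acellular 10 mm skin, 2.66, 5.60 and 2.28 in acellular 15 mm skin, 12.1, 2.85 and 3.83 in HDB 10 mm skin and 3.65, 7.09 and 6.38 in HDB 15 mm skin. No wound sample reached the lowest normal sample, and the highest was HDB 10 mm replicate 1. Mean levels were 5.81-fold lower in wounds (log2 fold change -2.57, standard error 0.35, adjusted p = 0.00115 by edgeR's quasi-likelihood test). Its neighbour Hoxa10, which patterns the lumbar spine and the uterus (chr6:52231197-52240854), stood at 12.2, 5.62 and 15.0 CPM in normal skin. Wound values of Hoxa10 were 0.742, 2.25 and 3.80 CPM in acellular 10 mm skin, 0.566, 3.03 and 0.265 in acellular 15 mm skin, 3.79, 0.161 and 1.61 in HDB 10 mm skin and 1.77, 3.70 and 0.960 in HDB 15 mm skin. These wound values varied widely among themselves yet stayed below normal skin. The log2 fold change of Hoxa10 was -2.56 (standard error 0.66, adjusted p = 0.0141), and it was no longer called without normal replicate 1 (adjusted p = 0.0513) or normal replicate 3 (adjusted p = 0.0773).

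In the Hoxd cluster, all 5 members tested were lower in wounds, and 3 of them were called. Hoxd9, a regulator of limb and trunk position (chr2:74697763-74700208), was at 32.9, 29.2 and 34.6 CPM in normal skin. Its wound values were 10.2, 16.3 and 10.9 CPM in acellular 10 mm skin, 4.59, 9.86 and 12.8 in acellular 15 mm skin, 15.7, 10.4 and 14.7 in HDB 10 mm skin and 11.5, 15.8 and 15.5 in HDB 15 mm skin. The groups did not overlap, and the mean was 2.61-fold lower in wounds (log2 fold change -1.40, standard error 0.23, adjusted p = 0.00209). Hoxd8, the member with the highest level in normal skin (chr2:74704615-74707933), had 78.1, 61.5 and 83.6 CPM there. In wounds it had 21.1, 32.6 and 47.1 CPM in acellular 10 mm skin, 28.3, 30.6 and 31.8 in acellular 15 mm skin, 46.5, 22.5 and 36.1 in HDB 10 mm skin and 36.9, 49.8 and 43.5 in HDB 15 mm skin. Again no wound sample reached normal skin, and the log2 fold change was -1.08 (standard error 0.21, adjusted p = 0.00438). Hoxd10 (chr2:74684273-74695106) had 5.76, 3.55 and 6.30 CPM in normal skin and, in the same order of wound groups, 2.05, 3.71 and 0.993, then 0.850, 1.40 and 3.03, then 2.07, 2.47 and 2.22, then 1.71, 2.18 and 2.71 CPM. Here acellular 10 mm replicate 2 lay above normal replicate 2. Its log2 fold change was -1.30 (standard error 0.36, adjusted p = 0.0177), and the call was lost without normal replicate 1 (0.0789) or normal replicate 3 (0.106). The gene span of Hoxd10 overlaps that of Hoxd11 on the same strand, so reads may have been shared between the pair.

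Hoxa7, the last of the mid-cluster Hoxa genes, was lower in wounds as well, with 21.4, 14.9 and 21.7 CPM in normal skin. Wounds had 14.5, 9.54 and 14.2 CPM in acellular 10 mm skin, 7.36, 8.75 and 9.55 in acellular 15 mm skin, 13.9, 8.82 and 5.94 in HDB 10 mm skin and 9.65, 5.76 and 10.3 in HDB 15 mm skin. The groups did not overlap, although the highest wound sample came close to normal replicate 2. The log2 fold change was -0.99 (standard error 0.23, adjusted p = 0.00931), and the call was lost without normal replicate 1 (0.0506) or normal replicate 3 (0.0609). Hoxc5 and Hoxc9 were the remaining members called lower, at log2 fold changes of -0.79 (adjusted p = 0.0252) and -1.36 (adjusted p = 0.0484). Wound samples of Hoxc9 ran from 0.796 to 7.40 CPM and overlapped the normal range of 3.93 to 8.05 CPM. Hoxb9, the posterior end of the Hoxb cluster here, was not called (log2 fold change -1.30, adjusted p = 0.0533), with 1.24 to 7.99 CPM in wounds and 5.49 to 10.5 CPM in normal skin. Its highest wound value was again that of HDB 10 mm replicate 1, and it was called when that sample was left out (log2 fold change -1.60, adjusted p = 0.00701). The calls of Hoxc5 and Hoxc9 were lost without any 1 of the 3 normal samples, and that of Hoxc9 also without any 1 of 8 wound samples.

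The anterior part of the Hoxb cluster went the other way. Of 8 Hoxb members tested, 7 were higher in wounds and 5 were called, with a median log2 fold change of 0.69. Hoxb4, known for its use in the neck and in blood stem cells (chr11:96318267-96321638), was at 5.90, 5.42 and 6.77 CPM in normal skin. It had 13.7, 11.2 and 11.9 CPM in acellular 10 mm skin, 23.8, 14.5 and 14.0 in acellular 15 mm skin, 11.2, 11.2 and 11.9 in HDB 10 mm skin and 13.9, 11.5 and 11.4 in HDB 15 mm skin. All 12 wound samples lay above normal skin and all but acellular 15 mm replicate 1 within a narrow band. The mean was 2.21-fold higher in wounds (log2 fold change 1.12, standard error 0.18, adjusted p = 0.00188).

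Hoxb3, whose gene span contains that of Hoxb4 (chr11:96307101-96347930), had 14.8, 15.5 and 15.7 CPM in normal skin. It had 25.1, 22.3 and 27.2 CPM in acellular 10 mm skin, 51.3, 37.2 and 29.0 in acellular 15 mm skin, 22.4, 29.6 and 28.5 in HDB 10 mm skin and 28.7, 22.0 and 23.6 in HDB 15 mm skin. Normal samples were alike and all lay below the wounds (log2 fold change 0.89, standard error 0.16, adjusted p = 0.00361). Hoxb2, a hindbrain gene (chr11:96351632-96354020), had 8.57, 8.70 and 8.85 CPM in normal skin. In wounds it had 24.7, 19.5 and 18.5 CPM in acellular 10 mm skin, 26.9, 16.7 and 15.3 in acellular 15 mm skin, 13.9, 20.3 and 14.9 in HDB 10 mm skin and 22.0, 13.8 and 21.3 in HDB 15 mm skin. The lowest wound sample lay well above the highest normal sample, and the log2 fold change was 1.12 (standard error 0.21, adjusted p = 0.00399). Hoxb6, a trunk gene (chr11:96292814-96301569), had 8.78, 8.17 and 9.92 CPM in normal skin. Its wound values were 23.1, 19.1 and 16.5 CPM in acellular 10 mm skin, 22.8, 24.9 and 17.1 in acellular 15 mm skin, 17.6, 11.3 and 14.0 in HDB 10 mm skin and 21.9, 12.6 and 22.6 in HDB 15 mm skin. These did not overlap normal skin either (log2 fold change 1.04, standard error 0.21, adjusted p = 0.00497). Hoxb5 was called at a smaller size (log2 fold change 0.49, adjusted p = 0.0485), with 5.39 to 9.26 CPM in wounds and 4.29 to 5.36 CPM in normal skin, and it kept its call in 2 of the 15 fits that left out a sample.

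The other 13 members, Hoxb9 apart, were not called. Hoxc6 and Hoxc8, trunk genes among the highest members per kilobase, showed little difference in mean. Hoxc6 had 28.0, 36.5 and 37.8 CPM in normal skin, 22.7, 28.4 and 24.3 in acellular 10 mm skin, 24.5, 44.8 and 52.3 in acellular 15 mm skin, 47.6, 25.1 and 40.4 in HDB 10 mm skin and 34.4, 38.1 and 39.7 in HDB 15 mm skin (log2 fold change 0.02, adjusted p = 0.945). Hoxc8 had 19.4, 40.9 and 28.4 CPM in normal skin, 23.9, 23.1 and 27.5 in acellular 10 mm skin, 22.8, 25.0 and 26.6 in acellular 15 mm skin, 27.6, 24.2 and 29.8 in HDB 10 mm skin and 27.1, 29.8 and 36.2 in HDB 15 mm skin (log2 fold change -0.14, adjusted p = 0.556). The normal range of Hoxc8 enclosed all wound samples. Hoxa5, used in the lung and the thoracic skeleton, had 20.1, 18.9 and 17.8 CPM in normal skin, 30.8, 28.0 and 23.8 in acellular 10 mm skin, 14.6, 23.6 and 18.5 in acellular 15 mm skin, 21.8, 17.5 and 12.9 in HDB 10 mm skin and 25.8, 14.1 and 28.7 in HDB 15 mm skin (log2 fold change 0.17, adjusted p = 0.556). Hoxb7 had 13.6, 11.2 and 12.7 CPM in normal skin, 20.6, 17.6 and 14.9 in acellular 10 mm skin, 27.6, 17.4 and 10.9 in acellular 15 mm skin, 15.9, 18.1 and 13.5 in HDB 10 mm skin and 16.3, 11.6 and 20.7 in HDB 15 mm skin (log2 fold change 0.45, adjusted p = 0.174). Wounds and normal skin overlapped in both. The log2 fold changes of Hoxa2, Hoxa3, Hoxa4, Hoxa6, Hoxb8, Hoxc4, Hoxd3 and Hoxd4 lay between -0.50 and 0.51, and their samples overlapped between wounds and normal skin.

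**Figure D2:**
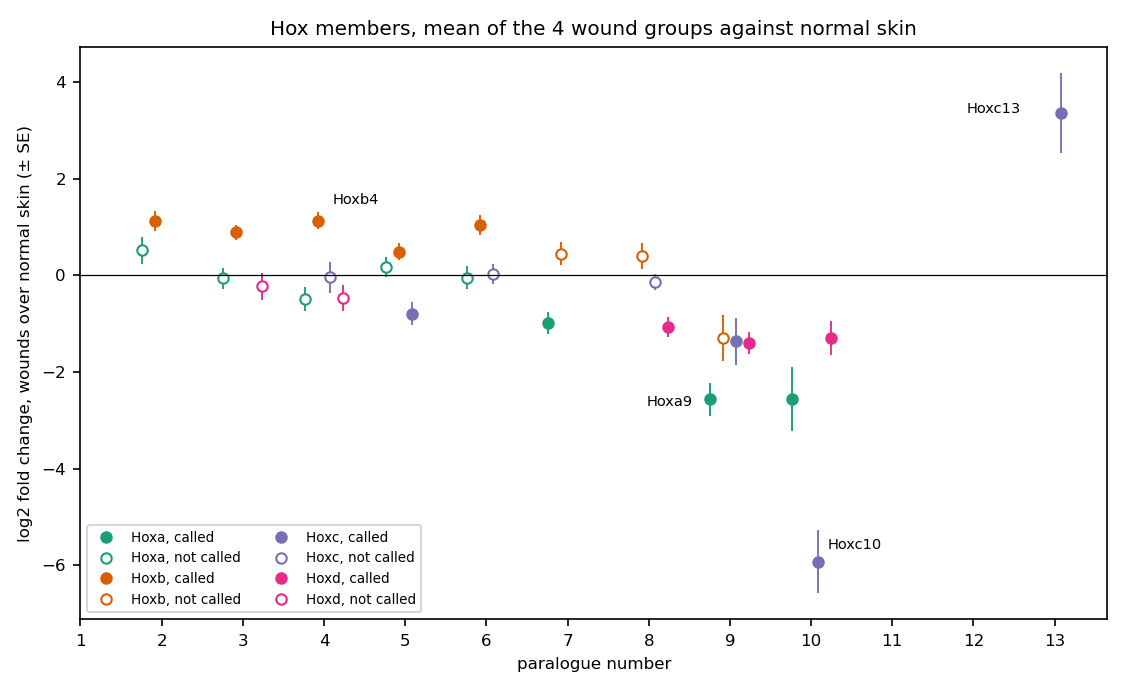
Log2 fold change of 28 of the members tested, mean of the 4 wound groups over normal skin, against paralogue number, coloured by cluster, with bars of 1 standard error and filled points for an adjusted p under 0.05. Points tend to lie lower to the right within each cluster, and Hoxc13 stands apart at 3.36. Hoxb2 lies at 1.12 and Hoxc10, which passed the filter only through normal skin, at -5.92.

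The median log2 fold change was 0.50 in groups 1 to 3 (6 members tested, 2 called higher and 0 lower), -0.04 in groups 4 to 8 (15 tested, 3 higher and 3 lower) and -1.40 in groups 9 to 13 without Hoxc13 (7 tested, 0 higher and 6 lower). The rank correlation between paralogue number and log2 fold change, given as a description across genes that share samples and in part reads, was -0.83 in Hoxa (9 genes), -0.83 in Hoxb (8 genes), -0.71 in Hoxc without Hoxc13 (6 genes), -0.90 in Hoxd (5 genes) and -0.73 over all 28. Without Hoxc10 it was -0.50 in Hoxc (5 genes) and -0.70 over the other 27, and the median of groups 9 to 13 was -1.38 (6 tested, 5 called lower). Within each sample, groups 9 to 13 without Hoxc13 made up 20.2%, 17.0% and 21.0% of the summed Hox level per kilobase in normal skin and 4.03% to 9.57% in wounds. Groups 1 to 3 made up 9.52% to 10.7% in normal skin and 14.0% to 24.3% in wounds. Neither share overlapped between wounds and normal skin, whereas that of groups 4 to 8 did, at 69.5% to 72.3% and 69.9% to 76.4%. By cluster, Hoxb held 17.3% to 19.7% of the summed level in normal skin and 28.1% to 57.1% in wounds, and Hoxd held 27.1% to 30.1% and 11.4% to 25.7%. The summed level of the 35 members without Hoxc13 differed less, with 384 to 450 CPM in normal skin and 285 to 383 CPM in wounds.

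**Figure D3:**
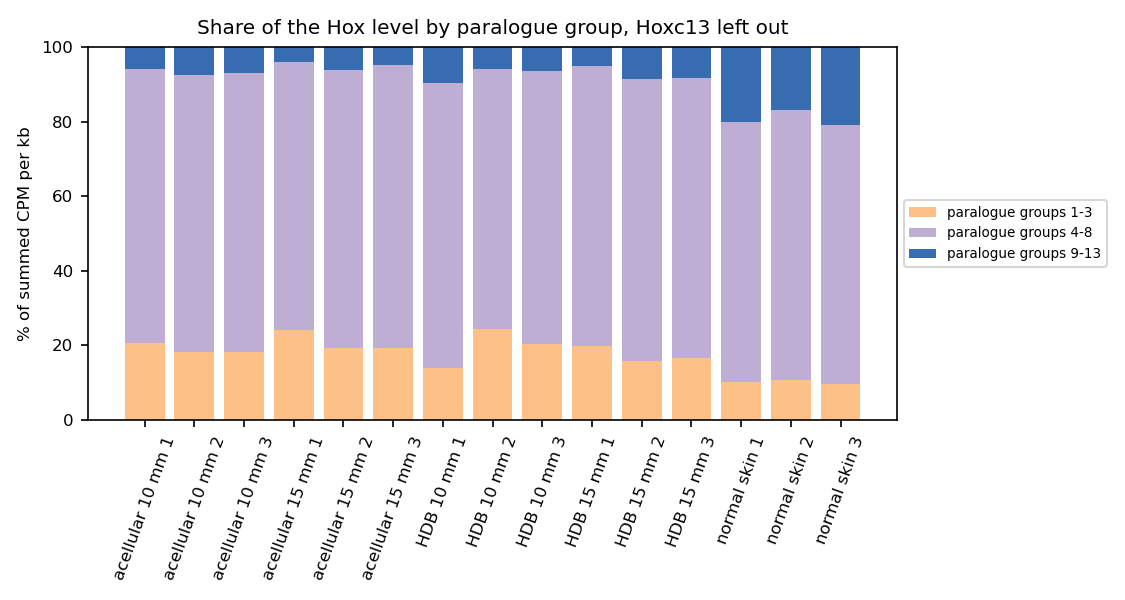
Share of the summed Hox level (CPM per kb, Hoxc13 left out) held by paralogue groups 1 to 3, 4 to 8 and 9 to 13 in each of the 15 samples, as stacked bars that add to 100%. Groups 9 to 13 take 17.0% to 21.0% in the 3 normal samples and at most 9.57% in the 12 wound samples.

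Ratios between a posterior and a more anterior gene of the same cluster, which do not depend on how samples were scaled, are given as a description. The pairs were chosen with the values above known and restate differences of those genes. Hoxa9 over Hoxa5 was 1.20 to 1.94 in normal skin and 0.122 to 0.553 in wounds. Hoxb9 over Hoxb4 was 1.01 to 1.77 and 0.111 to 0.711, and Hoxd9 over Hoxd4 was 1.57 to 1.75 and 0.519 to 1.29. Hoxc9 over Hoxc6 overlapped, with 0.141 to 0.213 in normal skin and 0.0152 to 0.186 in wounds.

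Hoxc13 (Entrez 15422, chr15:102921131-102928814) was the only member of groups 9 to 13 tested that was higher in wounds. It had 3.79, 3.88 and 3.15 CPM in normal skin. In wounds it had 59.9, 10.9 and 35.1 CPM in acellular 10 mm skin, 244, 106 and 10.6 in acellular 15 mm skin, 9.41, 13.5 and 11.2 in HDB 10 mm skin and 54.0, 18.1 and 45.7 in HDB 15 mm skin. All 12 wound samples lay above normal skin, but they differed widely among themselves, most of all in the acellular 15 mm group. The mean was 14.3-fold higher in wounds (log2 fold change 3.36, standard error 0.83, adjusted p = 0.0115 by edgeR's quasi-likelihood test). Without acellular 15 mm replicate 1 the mean was 9.42-fold higher. The call was lost without normal replicate 3 (log2 fold change 3.27, adjusted p = 0.0586). A list of hair matrix and shaft genes was set beside it. The summed level of its 22 genes was 25.2 to 29.0 CPM in normal skin and 40.9 to 26847 CPM in wounds, and 8 of the 21 genes tested were called higher and 0 lower, where 14.2% of all genes were called higher and 16.7% lower. They included Krt71 and Krt73, keratins of the inner root sheath, and Krt35, a keratin of the hair shaft, at log2 fold changes of 9.24 (adjusted p = 0.0178), 12.68 (adjusted p = 0.0241) and 8.15 (adjusted p = 0.0280). Of the 8 called genes, all but Msx2 and Tchh had at most 5 reads in any normal sample and passed the filter only through wounds, so their calls and fitted values add nothing to the summed levels. The most abundant gene of the list, Tchh, encoding trichohyalin, had a log2 fold change of 4.61 (adjusted p = 0.0489). Against normal skin by group, 5 of the 21 genes were called higher in acellular 10 mm skin and 21 in acellular 15 mm skin. In HDB 10 mm and HDB 15 mm skin 0 were called, with median log2 fold changes of 2 and 7.1. Of all genes 20.3%, 30.2%, 12.3% and 5.18% were called in these groups, in either direction. Between HDB and acellular skin of the same size 0 of the list were called, with medians of -4.59 at 10 mm and -4.2 at 15 mm.

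Each of the 29 members was set against the summed level of each of 9 cell type lists over the 12 wound samples, on a log2 scale with a pseudocount of 0.5 CPM, a comparison chosen after the data were seen. Of the 261 relations, 6 had an adjusted p under 0.05 both for Pearson's r and for Spearman's rho (two-sided permutation tests with 100000 resamples, Benjamini-Hochberg adjustment over the 261). Hoxc13 followed the hair list with r = 0.965 (p = 1e-05, the smallest these resamples can give, adjusted p = 0.0013) and rho = 0.958 (p = 5e-05, adjusted p = 0.00652), and r was 0.925 without the 2 samples farthest from the median of the list and 0.958 with the mean of each group removed. Hoxa10 followed the skeletal muscle list with r = 0.962 (p = 1e-05, adjusted p = 0.0013) and rho = 0.972 (p = 2e-05, adjusted p = 0.00522), and r was 0.966 without the 2 farthest samples and 0.967 with the mean of each group removed. Hoxa9 followed the same list with r = 0.853 (p = 0.00022, adjusted p = 0.0125) and rho = 0.888 (p = 0.00031, adjusted p = 0.0162), with r = 0.846 without the 2 farthest samples and 0.851 with group means removed.

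The remaining relations concerned the Hoxd cluster. Hoxd3 followed the dermal fibroblast list (r = 0.846, p = 0.00024, adjusted p = 0.0125, rho = 0.895, p = 0.00022, adjusted p = 0.0144, permutation tests), and r was 0.786 without the 2 farthest samples and 0.778 with group means removed. Hoxd10 followed the immune list (r = 0.878, p = 0.00015, adjusted p = 0.0125, rho = 0.867, p = 0.00069, adjusted p = 0.03, permutation tests) with r = 0.717 without the 2 farthest samples and 0.887 with group means removed. It ran against the hair list (r = -0.82, p = 0.00102, adjusted p = 0.0316, rho = -0.839, p = 0.00094, adjusted p = 0.0307, permutation tests) with r = -0.653 without the 2 farthest samples and -0.84 with group means removed. The lists share samples and are not independent of each other.

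**Figure D4:**
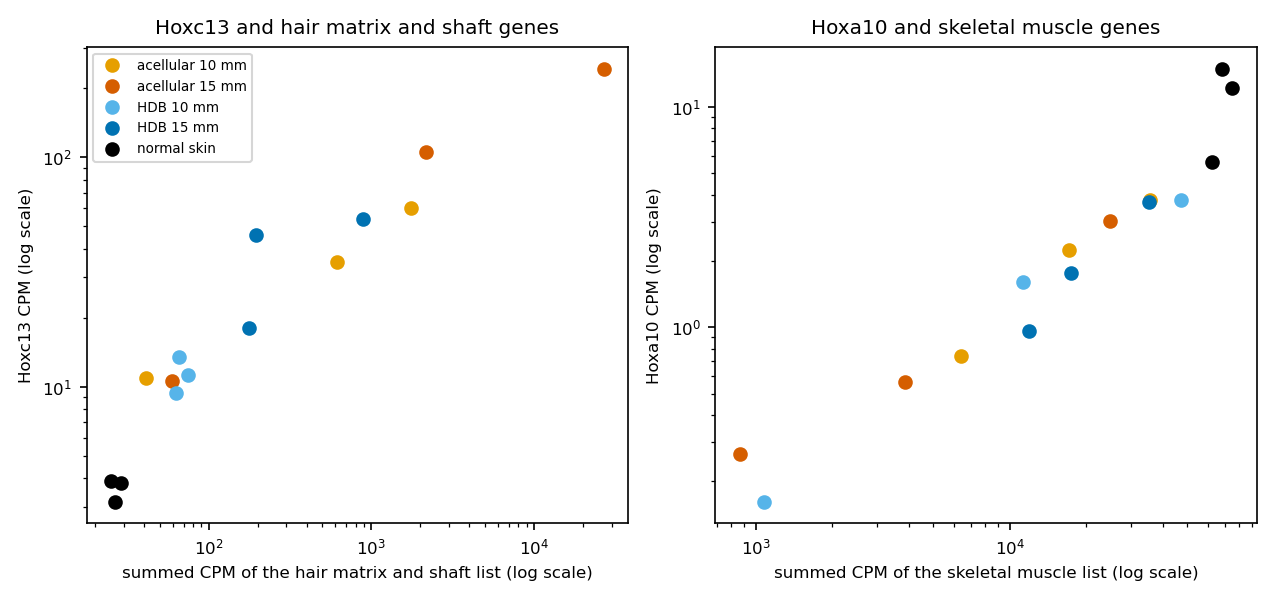
Level of Hoxc13 against the summed level of the hair matrix and shaft list (left) and of Hoxa10 against that of the skeletal muscle list (right), in CPM on log axes, 1 point per sample coloured by group. Over the 12 wound samples r is 0.965 on the left and 0.962 on the right, and the normal samples lie at the low end on the left and at the high end on the right.

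The other cell type lists were compared with the shares of all genes called, 14.2% higher and 16.7% lower. The skeletal muscle list summed to 62579 to 75108 CPM in normal skin and to 865 to 47010 CPM in wounds, without overlap. Its highest wound value was that of HDB 10 mm replicate 1, the wound sample with the most Hoxa9 and the largest share of groups 9 to 13. Of its 14 genes, 1 was called lower and 0 higher, Myh1, a fast myosin (log2 fold change -3.03, adjusted p = 0.0113), and the most abundant, Acta1, the actin of skeletal muscle, had -2.22 (adjusted p = 0.0575). With the log2 level of this list as a covariate, a fit added once the data had been seen, 7 of 29 members were called, against 5.58% of all genes. These were Hoxa9 (log2 fold change -1.78, adjusted p = 0.0117), Hoxc10 (-6.32, 0.0230, tested only through its level in normal skin), Hoxd9 (-1.32, 0.0376), Hoxb2 (0.88, 0.0493), Hoxb3 (0.85, 0.0380), Hoxb4 (1.09, 0.0252) and Hoxb6 (1.19, 0.0277). Hoxa10 had -0.79 in that fit (adjusted p = 0.173) and Hoxd8 -0.70 (adjusted p = 0.0790). Hoxc5 had -0.40 (adjusted p = 0.328), Hoxc9 -1.15 (adjusted p = 0.277) and Hoxb5 0.37 (adjusted p = 0.287). Other calls were lost with values as large or nearly so, at -1.71 for Hoxd10 (adjusted p = 0.0535), -0.93 for Hoxa7 (adjusted p = 0.0909) and 3.21 for Hoxc13 (adjusted p = 0.0670). No wound sample had as much of the list as normal skin, so this fit extends the relation seen in wounds beyond its range.

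The endothelium list summed to 764 to 848 CPM in normal skin and 142 to 578 CPM in wounds, and 10 of its 10 genes were called lower, among them Cdh5, Vwf and Eng with log2 fold changes of -1.72, -2.18 and -1.19 and Pecam1, its most abundant gene, with -1.45. The adipocyte list had 6 of 9 genes lower, with Lpl, Lep and Cidec at -1.33, -2.08 and -1.51 and Fabp4, the most abundant, at -1.02 (adjusted p = 0.0536). The dermal fibroblast list, from the cells in which positional Hox expression is best known, had 3 of 15 genes lower and 0 higher. These were Pi16, Dcn and Dpt at log2 fold changes of -2.63, -1.39 and -1.12, and the most abundant, Col3a1, was not called (-0.59, adjusted p = 0.301). Its summed level overlapped, with 8341 to 26211 CPM in normal skin and 3999 to 20041 CPM in wounds. The keratinocyte list had 7 of 14 genes higher and 2 lower, with Krt16, Trp63 and Krt17 at 4.87, 0.80 and 1.78 and Krt5 at 1.07 (adjusted p = 0.0210). In the immune list 2 of 12 genes were lower, no more than the share of all genes, Csf1r and Adgre1 at -1.38 and -1.14, with Lyz2, its most abundant gene, at -0.08. In the Schwann and nerve list 2 of 9 were lower, Prx and Mbp at -1.29 and -1.01, with Pmp22 at -0.85 (adjusted p = 0.0634). In the melanocyte list 1 of 7 was higher, Mitf at 0.48, with Dct at 1.98 (adjusted p = 0.0717). The part of these cell types in the Hox values was not tested beyond the covariate fit above.

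Each wound group was also compared with the same 3 normal samples, so the 4 comparisons share their controls. In acellular 10 mm skin 10 of 29 members were called (34.5%, against 20.3% of all genes), in acellular 15 mm skin 14 (48.3%, against 30.2%), in HDB 10 mm skin 7 (24.1%, against 12.3%) and in HDB 15 mm skin 6 (20.7%, against 5.18%). Members called in all 4 groups were Hoxa9, Hoxb2 and Hoxb4, beside Hoxc10, whose calls follow from the filter and the shared normal samples. In the order acellular 10 mm, acellular 15 mm, HDB 10 mm and HDB 15 mm, the log2 fold changes of Hoxa9 were -2.56, -3.08, -2.26 and -2.38, with adjusted p of 0.0103, 0.00422, 0.0220 and 0.0314. Those of Hoxb4 were 1.02, 1.53, 0.93 and 1.02, with adjusted p of 0.00988, 0.00232, 0.0206 and 0.0258. Those of Hoxb2 were 1.26, 1.17, 0.91 and 1.13, with adjusted p of 0.00913, 0.00722, 0.0357 and 0.0314. For Hoxc10 they were -5.62, -5.89, -6.56 and -5.62, and adjusted p ran from 0.00531 to 0.0232. Hoxc13 was called in 3 groups, at 3.29 (adjusted p = 0.0261), 5.05 (0.00534) and 3.44 (0.0481), and not in HDB 10 mm skin, at 1.66 (0.208). With 1 sample left out, the 3 calls of Hoxc13 held in 1, 6 and 1 of 6 fits, in the same order. Hoxd9 was called in 3 groups, at -1.37 (0.0148), -1.82 (0.00438) and -1.24 (0.0304), and not in HDB 15 mm skin, at -1.17 (0.0510). Hoxa4, a gene of the neck and upper trunk whose wound values ran from 1.30 to 3.33 CPM against 1.81 to 4.57 CPM in normal skin, had a log2 fold change of -1.07 in acellular 15 mm skin (adjusted p = 0.0299), a call lost without acellular 15 mm replicate 1 (0.0757), normal replicate 1 (0.137) or normal replicate 2 (0.0736). These adjusted p are from edgeR's quasi-likelihood test.

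The counts for single groups rested on few samples, and the calls over all genes fell in the same fits. In HDB 10 mm skin 0 members were called without HDB replicate 2, HDB replicate 3 or normal replicate 3, 1 without normal replicate 1 and 2 without normal replicate 2, and 0.501% to 3.86% of all genes were called there in place of 12.3%. In HDB 15 mm skin 0 were called without HDB replicate 1 or any 1 of the normal samples, and 1 without HDB replicate 3, with 0.218% to 0.861% of all genes in place of 5.18%. In acellular 10 mm skin 4 were called without acellular replicate 1, 6 without normal replicate 2 and 5 without normal replicate 3, with 5.14% to 7.04% of all genes in place of 20.3%. In acellular 15 mm skin 9 were called without normal replicate 1, with 16.9% of all genes in place of 30.2%. For the mean of the 4 wound groups the count was 9 without normal replicate 1 and 8 without normal replicate 3, with 16.2% and 11.9% of all genes in place of 30.9%. Hoxa9, Hoxb2, Hoxb3, Hoxb4, Hoxb6, Hoxd8 and Hoxd9 were called in that comparison in all 15 fits that left out 1 sample.

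The question of the study, whether beads laden with stem cells change the healed skin, was addressed by comparing HDB with acellular wounds of the same size. At 10 mm 0 of 29 members were called by edgeR's quasi-likelihood test, against 0.0% of all genes. DESeq2 called 0 members and 0.0792% of all genes. At an unadjusted p under 0.05 there were 543 of 15369 genes and 2 of 29 members, Hoxa5 (log2 fold change -0.66, standard error 0.27) and Hoxc6 (0.58, standard error 0.27). Samples did not overlap in 2 members, Hoxa5 and Hoxd3 (6.9%, against 11.0% of all genes). At 15 mm 0 members were called, against 2.92% of all genes. An unadjusted p under 0.05 was found for 3566 of 15369 genes and for 4 of 29 members. These were Hoxb3 (log2 fold change -0.66, adjusted p = 0.0776), Hoxb4 (-0.51, adjusted p = 0.165), Hoxa4 (0.82, adjusted p = 0.166) and Hoxa6 (-0.68, adjusted p = 0.199). Samples did not overlap in 6 members, Hoxa4, Hoxb3, Hoxb4, Hoxc5, Hoxc8 and Hoxd8 (20.7%, against 20.3% of all genes). DESeq2 called Hoxb3 at 15 mm (-0.66, adjusted p = 0.0189), where it called 9.46% of all genes.

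Over both sizes 0 members were called, against 0.0% of all genes, and DESeq2 called 0 members and 1.18% of all genes. An unadjusted p under 0.05 was found for 2428 of 15369 genes and for 2 of 29 members. They were Hoxc13 (log2 fold change -1.62, standard error 0.58, adjusted p = 0.263 by edgeR) and Hoxa6 (-0.51, adjusted p = 0.288). The difference of Hoxc13 between HDB and acellular skin was -1.63 at 10 mm (adjusted p = 1.00) and -1.61 at 15 mm (adjusted p = 0.255), and standard errors of 0.82 and 0.81. Without acellular 15 mm replicate 1, the sample with the most Hoxc13, the 15 mm value was -0.57 (adjusted p = 0.774), and without acellular 10 mm replicate 1 the 10 mm value was -1.01 (adjusted p = 1.00). When the effect of HDB at 15 mm was set against that at 10 mm, 0 members were called, against 0.0% of all genes. DESeq2 called 0 members and 3.22% of all genes there. The unadjusted p was under 0.05 for 2064 of 15369 genes and for 2 of 29 members. They were Hoxb3 (-0.77, adjusted p = 0.238) and Hoxa5 (0.94, adjusted p = 0.300). Between wound sizes 0 members were called, against 0.397% of all genes. The unadjusted p was under 0.05 for 2314 of 15369 genes and for 2 of 29 members. They were Hoxc13, higher at 15 mm (log2 fold change 1.78, adjusted p = 0.168), and Hoxa2 (-0.51, adjusted p = 0.330), and DESeq2 called Hoxc13 (1.77, adjusted p = 0.0264), where it called 4.45% of all genes. All 9 Hoxa members tested were on the lower side at 15 mm, between -0.07 and -0.51. Of Hoxb, Hoxc and Hoxd members, 7 of 8, 6 of 7 and 3 of 5 were on the higher side, and edgeR called none of these members. Much of this also turned on acellular 15 mm replicate 3, which had 10.6 CPM of Hoxc13 and 59.6 CPM of the hair list where the other samples of its group had 106 and 244 CPM and 2153 and 26847 CPM. Without it Hoxb3 (-0.84, adjusted p = 0.0190) and Hoxc13 (-2.15, adjusted p = 0.0340) were called at 15 mm, Hoxc13 over both sizes (-1.89, adjusted p = 0.0486) and Hoxc13 between sizes (2.05, adjusted p = 0.0184). In those fits 14.9%, 1.47% and 4.63% of all genes were called, so the members' share at 15 mm was below that of all genes.

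**Figure D5:**
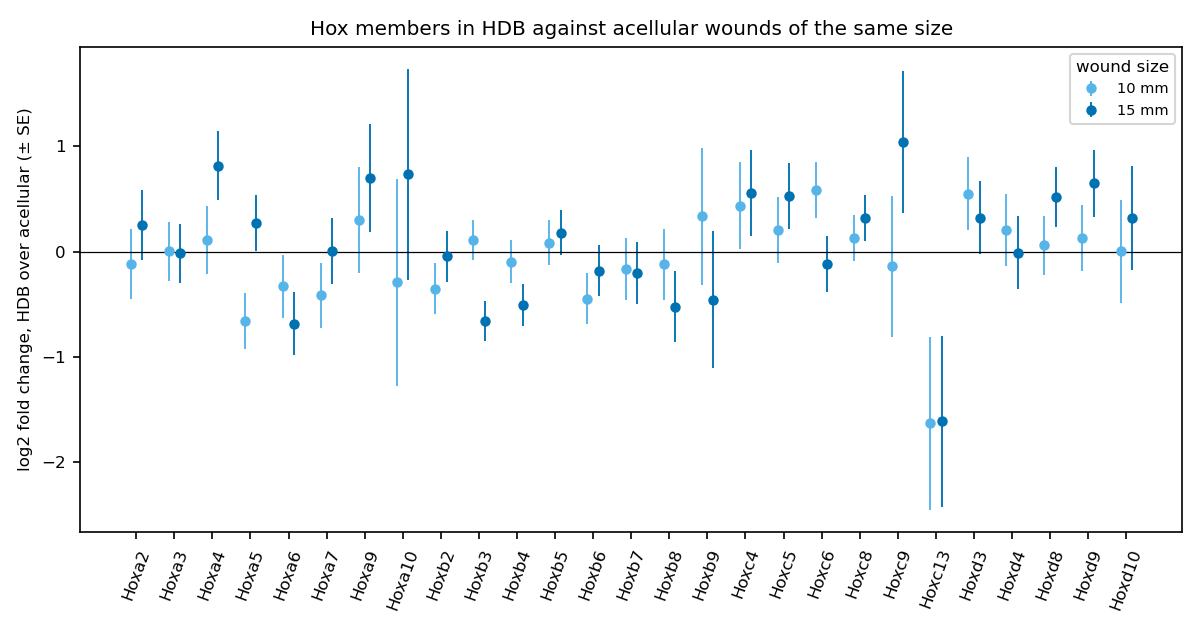
Log2 fold change of HDB over acellular skin for 27 members at 10 mm (light) and 15 mm (dark), with bars of 1 standard error, where Hoxc10 is left out because most of these samples had at most 3 reads of it. Most members lie within 1 of 0, and Hoxc13 lies at -1.63 and -1.61 with the widest bars but for Hoxa10.

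Genes that work with or upon Hox genes were followed as lists. The cofactors, homeodomain proteins that bind DNA together with HOX proteins, had 1 of 9 members higher and 1 lower in wounds than in normal skin, where 30.9% of all genes were called, 14.2% higher and 16.7% lower. Pknox2 was lower (log2 fold change -1.87, adjusted p = 0.0166), and Pknox1 was higher (0.45, adjusted p = 0.0170). Of 22 Polycomb and trithorax genes, whose proteins hold Hox clusters silent or active, 6 were higher and 2 were lower, with a median of 0.20. Ezh2, the methyltransferase of Polycomb, was higher (1.00, adjusted p = 0.0139), as were Cbx8, a reader of its mark (0.70, adjusted p = 0.00872), and Men1, a partner of trithorax methyltransferases (0.53, adjusted p = 0.0127). Kmt2a, the trithorax methyltransferase that maintains Hox expression and the most abundant of the list, was not called (0.28, adjusted p = 0.204). Between HDB and acellular skin at 15 mm 4 of these 22 were lower and 0 higher, against 2.92% of all genes called, namely Kmt2b (-0.60, adjusted p = 0.0228), the demethylases Kdm6b (-0.99, adjusted p = 0.0228) and Kdm6a (-0.52, adjusted p = 0.0261), and Kmt2a (-0.86, adjusted p = 0.0489). None of these calls held without HDB 15 mm replicate 1, 2 or 3, or with only the groups compared in the fit, where 0 genes were called in all.

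Of 24 genes in or beside the Hox clusters, 6 were in the table, and 1 of them was called. Lnpk, which lies beside the Hoxd cluster, had 52.5 ± 13.8 CPM in wounds (SD, n = 12) and 121 ± 26.3 CPM in normal skin (SD, n = 3), a log2 fold change of -1.21 (adjusted p = 0.00312 by edgeR), in the same direction as its Hoxd neighbours. Cbx5, the most abundant of the 6, had 0.03 (adjusted p = 0.941). Among 24 other positional transcription factors tested, 6 were lower and 1 was higher in wounds, with a median log2 fold change of -0.25. The share called was close to the 30.9% of all genes, and the genes below are given as single values. Pitx1, the determinant of hindlimb identity, was lower (-3.74, adjusted p = 0.00277), with 0.471 ± 0.470 CPM in wounds (SD, n = 12) and 5.33 ± 1.16 CPM in normal skin (SD, n = 3). The wound mean was not far above the 0.163 to 0.189 CPM that 3 counts correspond to, so the fitted value is imprecise. Tbx3, a regulator of limb and mammary development (-2.11, adjusted p = 0.00209), and Tbx15, which sets dorsal and ventral skin patterning (-1.73, adjusted p = 0.00489), were lower too. Prrx1, a mesenchymal gene and the most abundant of the list, was not called (-0.67, adjusted p = 0.102). ParaHox and Cdx genes, relatives of the Hox genes used mainly in the gut, were close to silent, with 4 in the table, at most 0.117 CPM in sum in any sample and 0 that passed the filter.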

How the data were processed

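RNA from 15 samples of mouse skin, 3 in each of 5 groups, had been selected with oligo(dT) and sequenced. The deposited values are expected counts per gene that the authors made with RSEM 1.2.12, and the submitters' processing notes also name HISAT2 2.0.4, Bowtie2 2.2.5 and the genome build GRCm38.p6. Whether the libraries kept strand is not given in the sources used here, so reads of members whose spans overlap (6 pairs, on the same strand) may have been shared between them. No column of per-sample values was left unused.

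Expected counts were rounded to whole numbers. Genes were filtered with filterByExpr, scaled by TMM and fitted in edgeR 4.0.16 (R 4.3.3) as 1 quasi-likelihood model with 5 group means, and 10 contrasts were tested, two-sided. P-values were adjusted by the Benjamini-Hochberg method over all 15369 genes, and an adjusted p under 0.05 was called. The fit was checked on simulated data before use. CPM per kb used the median length of the coding transcripts. Relations between members and lists used permutation tests in scipy 1.17.1 (Python 3.11.15), and figures matplotlib 3.10.9. Total counts of 15840551 to 18404186 per sample limit the precision at low levels, where 3 counts correspond to 0.163 to 0.189 CPM, and this covers counting error only.

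The members follow a naming rule that uses no expression value, but this gene family and the gene lists were taken up with earlier results of these data known. Values in every sample are given for Hoxc13, for the 12 members with the smallest adjusted p in any comparison and for the 10 with the highest mean CPM. From each other list up to 3 called genes with the smallest adjusted p and the most abundant gene are named. Some genes that these rules or counts include are not reported here by name or in figures. Hoxa4, Hoxb5, Hoxb9, Hoxc5, Hoxc9 and members named at an unadjusted p were singled out after their values were seen.

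Groups share replicate numbers. Among the 10 pairs of groups, same-numbered samples deviated together (each correlation over 0.1) in acellular against HDB 15 mm skin alone, at 0.397, 0.167 and 0.183. Alternatives were DESeq2 1.42.0, upper-quartile scaling, other filters, only the groups compared, a replicate block, a minimum fold, each sample left out in turn and, chosen after the data were seen, a skeletal muscle covariate.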

Additional observations from a re-analysis of the deposited data

How the results depend on the processing

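No called value changed direction in any setting tried. The number of members called moved by more than 1.5 times as follows. DESeq2, run on all genes with its own filter, called 10 members in HDB 15 mm against normal skin (6 with edgeR), all among the 29 tested by edgeR, and 2371 genes in all (796 with edgeR). It called 1 between HDB and acellular skin at 15 mm and 1 between sizes (0 each with edgeR), with 9.46% and 4.45% of all genes. With only the groups compared in the fit, 17 were called in acellular 10 mm skin (10 with all groups), where calls over all genes went from 20.3% to 42.0%, and 13 in HDB 15 mm skin, where they went from 5.18% to 22.9%, and that setting gives no other value for the mean of the wound groups, which uses all groups. With the replicate block 2 were called in HDB 15 mm skin (1.54% of all genes), where Hoxa9 (0.0599) and Hoxb2 (0.0520) lost their calls, and at 15 mm Hoxb3 had an adjusted p of 0.114 between HDB and acellular skin. The block left the other counts within 1.5 times, with 14 for the mean of the wound groups. With a minimum absolute log2 fold change of 1, 4 were called in HDB 10 mm skin (5.8% of all genes). With the skeletal muscle covariate 7 were called for the mean of the wound groups, 5 in acellular 15 mm skin and 0 in HDB 10 mm skin, with 5.58%, 5.65% and 0.39% of all genes. Leaving out 1 sample at a time gave 8 to 17 for the mean of the wound groups, 4 to 8 in acellular 10 mm, 9 to 15 in acellular 15 mm, 0 to 10 in HDB 10 mm and 0 to 8 in HDB 15 mm skin. In the fits with the highest counts 40.1%, 11.9%, 37.3%, 17.5% and 8.61% of all genes were called, in the same order. Comparing HDB with acellular skin, the same procedure gave 0 to 2 at 15 mm, 0 to 1 over both sizes, 0 at 10 mm and 0 for the interaction with size, and comparing the sizes it gave 0 to 1. The cause was not tested, apart from the fewer samples in the fits that left samples out. Upper-quartile scaling moved the median log2 fold change of all genes against normal skin from 0.04 to 0.10. Depth limits the 7 members that did not pass the filter and Hoxc10 in wounds, where single reads decide the level.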
